A study of Sus scrofa with 50 samples.

Results

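The 10 in vitro hatched blastocysts of a porcine embryo series were examined for the differences between individual embryos of 1 group. They were the 10 embryos whose label begins with hb_vitro in the table of hatched blastocysts, out of 50 embryos in the whole series, and no other group enters the values given here. The series profiled single pig embryos, flushed from gilts or produced in vitro, as 4-cell embryos, as morulae and as hatched blastocysts. All 10 embryos were pig (Sus scrofa) embryos without a genetic modification, from oocytes matured and fertilized in vitro with semen of the same Duroc boar, cultured in PZM-5 medium at reduced oxygen and collected as hatched blastocysts about a week after fertilization. They came from several in vitro experiments, and the experiment of each embryo is not given in the sources used here, so embryo and experiment cannot be told apart. The embryos are called by the code at the end of their label: A4, D3 and E4, labelled female, and B4, C3, C4, E3, F4, G3 and G4, labelled male. Each embryo gave 1 Smart-seq2 library, a full-length cDNA library made from polyadenylated RNA by template switching and PCR. A library holds the RNA of a whole embryo, so more cells of a type and more RNA per cell cannot be told apart.

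As background, a hatched blastocyst has left the zona pellucida and consists of an outer epithelium, the trophectoderm, which forms most of the embryo and later the placenta, and an inner cell mass. The inner cell mass separates into the epiblast, the source of the embryo proper, and the hypoblast, an epithelium that spreads under the trophectoderm, secretes apolipoproteins and extracellular matrix, and forms the yolk sac lining. Embryos of the same age can stand at different steps of this sequence. The amino acid response is a program in which the transcription factor ATF4 raises the transcripts of enzymes that make amino acids, of carriers that import them and of tRNA synthetases when amino acids are scarce or the endoplasmic reticulum is stressed. ASNS, asparagine synthetase, is its usual reporter.

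The reads assigned to genes were fewest in embryos D3 and E4, with 1438600 and 1455997 reads, and the other 8 had between 3695108 and 4799514 reads. The values were CPM, a gene's reads relative to the library size as scaled by the authors, and 1 read was worth between 0.229 CPM in B4 and 0.870 CPM in D3. The libraries detected between 11626 and 15372 genes with at least 1 read, with D3 and E4 at 11626 and 11985 and no other embryo under 13824. Of 30321 gene identifiers, 7093 had a mean of at least 10 CPM, and all values on spread and shared variation below are for these. A filter on the mean keeps genes that are high in a few embryos and near 0 in the rest.

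Transcripts of the Y chromosome went against the sex labels in 4 of the 10 embryos. EIF1AY, a Y-linked translation initiation factor, was present in 7 embryos, at 186 CPM in A4 and 146 CPM in E4, both labelled female, and at 286, 113, 125, 167 and 248 CPM in C3, C4, E3, F4 and G3. It had no read in B4 and G4, both labelled male, nor in D3, labelled female. Of the 137 identifiers on chromosome Y, 9 had a mean of at least 10 CPM. Summed over all 137, the Y-linked transcripts were at 682 to 1194 CPM in the embryos with EIF1AY reads and at 13.9 to 39.6 CPM in the 3 without. Several Y-linked genes have close X-linked copies, and reads may have been assigned to either. The labels are therefore used below as names only.

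Markers of the stage were present in every embryo. The trophectoderm keratins KRT8 and KRT18 were at 3590.4 ± 1088 and 2361 ± 663 CPM (mean ± SD, n = 10), and DAB2, an endocytic adaptor, at 1684 ± 166 CPM. POU5F1, a pluripotency factor that pig trophectoderm also carries, was between 36.7 CPM in E4 and 104 CPM in B4. NANOG, an epiblast factor, reached at most 3.48 CPM and SOX2 at most 0.901 CPM in any embryo, so both were at or near 0. Of 20 listed genes of the inner cell mass and epiblast, 7 had a mean of at least 10 CPM. Of the hypoblast factors, GATA6 was at 157 to 342 CPM, whereas SOX17 and HNF4A had means of 2.38 and 5.21 CPM. Of 17 matched markers of cumulus, blood and sperm cells, 10 had no read in any embryo, and their summed level ran from 36.7 to 436 CPM, mostly AIF1, at 25.5 to 429 CPM. The 20 oocyte markers summed to between 33.9 and 73.3 CPM, mostly DNMT1, at up to 53.4 CPM. DNMT1 was the only 1 of these with a mean of at least 10 CPM.

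The annotation placed 0 of the 30321 gene identifiers on the mitochondrial genome, so no mitochondrially encoded transcript enters this ranking. Among the genes given, the most abundant transcript in every embryo was FTH1, the heavy chain of the iron store ferritin, at 19987 ± 5953 CPM (mean ± SD, n = 10). It lay between 12345 CPM in C3 and 30989 CPM in G3. CDC26, annotated as a subunit of the anaphase-promoting complex, followed with 11813 ± 2961 CPM, and EEF1A1, a translation elongation factor, with 10152 ± 1432 CPM. The next were GLRX, a glutaredoxin that reduces oxidized thiols, at 6941 ± 2297 CPM and the actin ACTB at 6878 ± 1869 CPM. Both main subunits of the catalytic part of mitochondrial ATP synthase were among the 15, ATP5B at 6122 ± 1042 CPM and ATP5A1 at 5810 ± 1025 CPM. So were HSPA8, a constitutive chaperone, at 6099 ± 871 CPM and the second cytoplasmic actin, ACTG1, at 5941 ± 844 CPM. The lysosomal lipid carriers GM2A and NPC2 had 6005 ± 1529 and 4972 ± 614 CPM. The list was completed by GPD1L at 5654 ± 1813, the ubiquitin gene UBB at 5018 ± 1610, calmodulin CALM2 at 4486 ± 806 and the nucleoside carrier SLC28A3 at 4428 ± 1012 CPM. ACTB and ACTG1, EEF1A1, UBB and FTH1 have near-identical copies or pseudogenes, and their levels depend on how such reads were assigned.

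**Figure D1:**
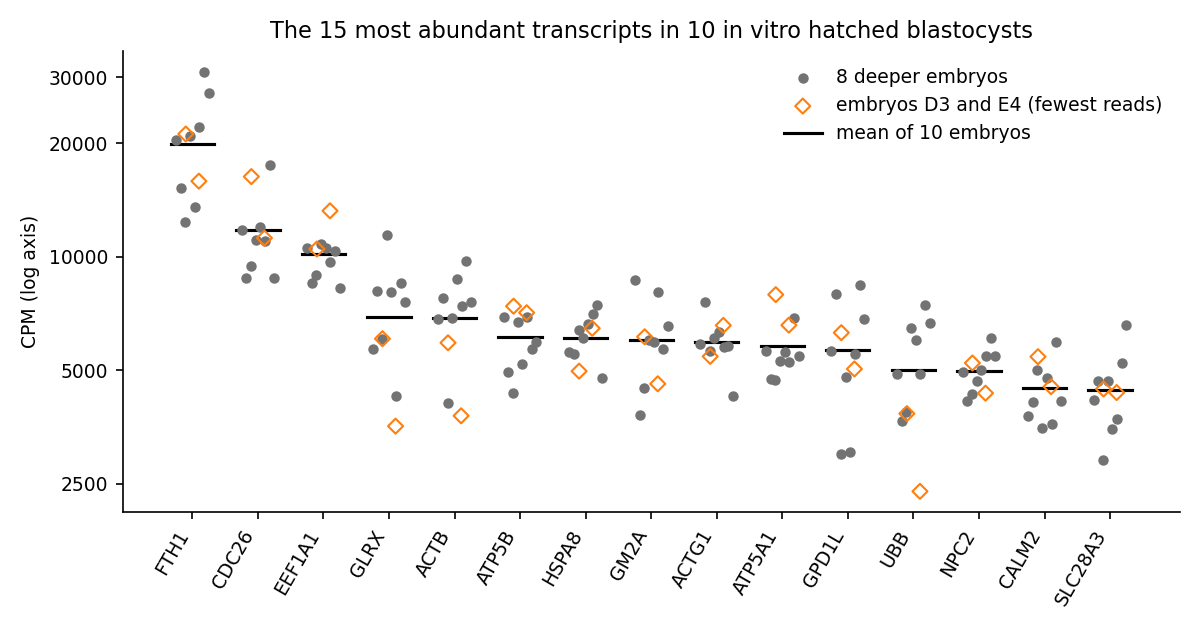
CPM (log axis) of the 15 transcripts with the highest mean, with 1 point per embryo, open diamonds for D3 and E4 and a bar for the mean of 10 embryos. FTH1 lies above all other transcripts, and the points of a gene span from 1.47-fold for NPC2 to 3.22-fold for GLRX.

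The 15 transcripts together took between 7.92% of the values in C3 and 11.2% in G3. NPC2 was the steadiest, with 4136 CPM in B4 and 6101 CPM in G3, a range of 1.47-fold. HSPA8 and EEF1A1 spanned 1.56-fold and 1.60-fold. The widest was GLRX, with 3556 CPM in E4 and 11441 CPM in C4, 3.22-fold, followed by UBB at 3.13-fold and GPD1L at 2.79-fold. G3 had the highest value for 8 of the 15 and C3 the lowest for 5. Over all 7093 genes, G3 had the highest value for 15.9% and C3 the lowest for 14.5%. CPM are not scaled by transcript length, so the order is one of reads and not of molecules.

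Most genes differed little between embryos. The SD of log2(CPM + 1) over the 10 embryos had a median of 0.37 over the 7093 genes, with 0.19 at the 5th and 0.82 at the 95th percentile. Counting of reads alone accounted for a median of 11.06% of a gene's variance. An SD over 1 was found for 201 genes, 2.83%, and an SD over 2 for 25. Without D3 and E4 the median SD was 0.35.

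As whole profiles, the embryos lay at a mean distance of 0.0716 ± 0.0149 (1 minus Pearson's r of log2(CPM + 1), SD over pairs). The closest were A4 and C4 at 0.0452, and the farthest were C3 and G4 at 0.109. D3 and E4 were 0.0497 apart. No embryo stood apart by its mean distance, which ran from 0.0625 for F4 to 0.0806 for C3. The first 3 principal components held 23.2, 19.4 and 15.02% of the variance. D3 and E4 had the highest scores on the first, 39.7 and 29.5, ahead of G4 at 11.0, with the other 7 below 0. Their lower depth moves with this component, and its part in the component was not tested. The second component ran from G4 at -28.7 and B4 at -22.7 to C3 at 30.0, and the third set G3 at 40.2 against all others, of which F4 was the next at 7.19.

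Of the 20 most variable genes, 9 lay on the Y chromosome, with SDs between 2.17 and 3.84. Among these, LOC100624149 had 161 to 352 CPM in the 7 embryos with EIF1AY reads and 0 in B4, D3 and G4. The rule picked genes by their SD, so the SDs are a description. The 20th gene had an SD of 2.14 and the 21st of 2.13.

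APOA1, the main protein of high-density lipoproteins and a product of hypoblast and yolk sac, varied more than any other autosomal gene. It lies on chromosome 9 at 44216481 to 44218360 (Sscrofa11.1). APOA1 had 1839.6 CPM in C3, 1258 in E3, 806 in F4, 332 in E4, 197 in D3, 188 in C4, 86.4 in G4, 45.8 in A4, 0.458 in B4 and 0 in G3. Its SD was 3.76 on the log2(CPM + 1) scale. APOC3, an inhibitor of lipoprotein clearance whose gene ends 2943 bases before the first base of APOA1, had 254 CPM in C3, 141 in E3 and 75.9 in F4, at most 15.6 CPM in 5 others and 0 in B4 and G3. In both genes B4 and G3 were the embryos with the fewest reads, although both libraries were deep.

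FN1, fibronectin of the basement membrane, followed the same embryos, with 262 CPM in C3 and 126 in E3, against 0.458 in B4, 2.70 in C4 and 2.90 in G3. SLC7A9, the light subunit of a carrier for cystine and basic amino acids, had 107 CPM in E3, 99.1 in C3, 87.7 in F4 and 53.4 in E4, and no read in B4 and G3. HBE1, an embryonic globin, reached 60.7 CPM in F4, 46.1 in E3 and 44.4 in C3, with 0 in B4, C4 and G3. GPR1, a receptor of chemerin, was at 62.2 CPM in E3 and 37.5 in E4 and had no read in B4 and G3. The high embryos of these genes were C3, E3, F4 and E4, which include a shallow library and 3 deep ones.

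TNC, the matrix protein tenascin-C, fell into 2 levels. It had 78.1 CPM in B4, 75.9 in F4, 52.2 in C4 and 26.6 in C3, and at most 3.48 CPM in the other 6. AURKC, a meiotic and early embryonic Aurora kinase, was high in the shallow embryos only, with 67.0 CPM in D3 and 79.7 in E4 and at most 3.48 CPM in the other 8. These were 77 and 100 reads, with the counting share of its variance at 2.08%, and the part of depth in this difference was not tested. Further entries were metallothioneins, small zinc-binding proteins: MT-2B had 61.8 CPM in D3 and 0 in G3 and G4, and MT1D had 94.8 CPM in D3 and 0 in G3. The last, LOC106509620, a long noncoding RNA, had 65.0 CPM in G3, 40.8 in E3 and at most 2.70 CPM elsewhere.

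**Figure D2:**
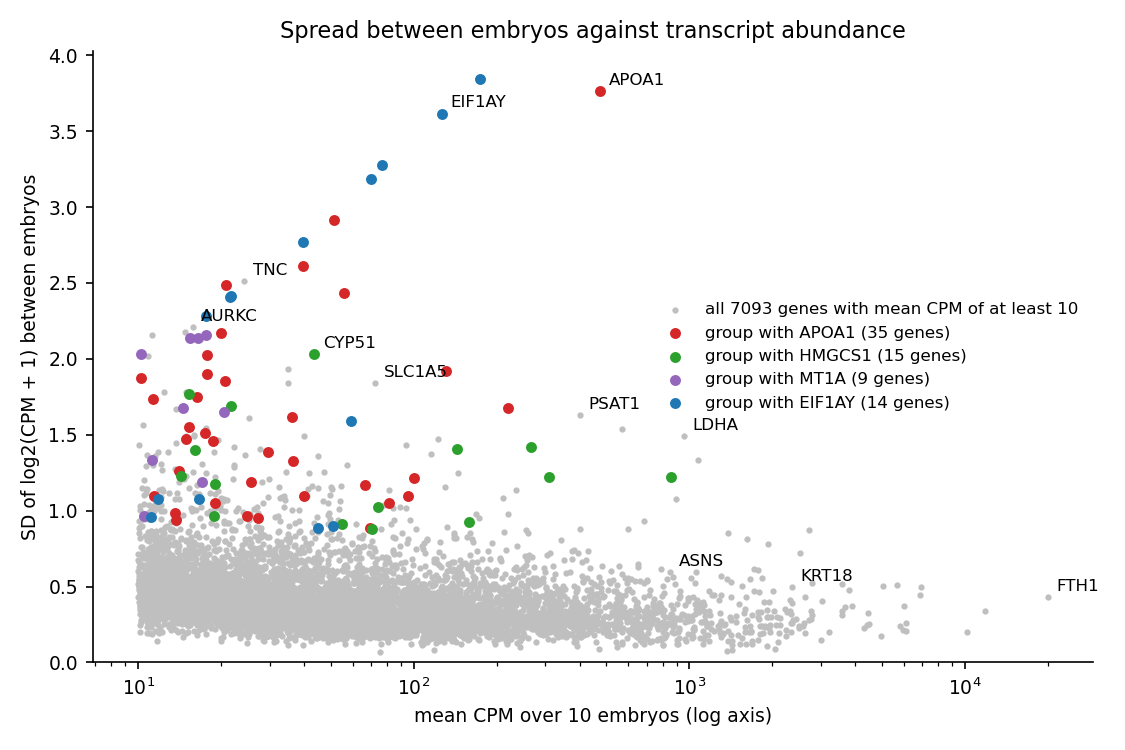
SD of log2(CPM + 1) over the 10 embryos against the mean CPM (log axis), 1 point per gene for 7093 genes, with 4 groups of genes that varied together in colour. Most genes lie below an SD of 0.82, and APOA1 and the Y-linked genes lie above 2.

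To see which genes varied together, the 300 most variable genes, with SDs of at least 0.87, were clustered on 1 minus Spearman's rho with average linkage. Branches were separated at a rho of 0.6, and groups of at least 8 genes were kept. This gave 11 groups with 182 of the 300 genes. Over all pairs of the 7093 genes the median rho was 0.01 and the 5th and 95th percentiles were -0.59 and 0.61, so with 10 embryos single correlations of this size are common. A rho over 0.8 was found for 0.777% of all pairs and over 0.9 for 0.114%. The groups were built from these correlations, and their rho values are a description.

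**Figure D3:**
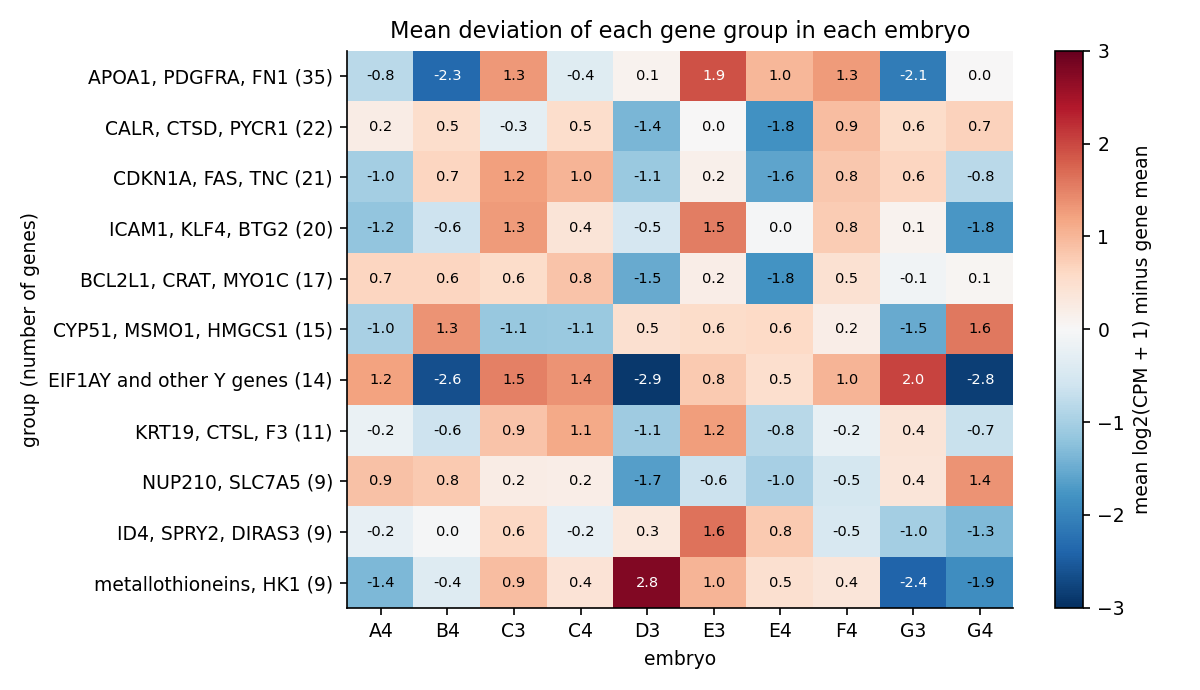
Mean deviation of log2(CPM + 1) from the gene's mean over embryos, for 11 groups of genes that varied together (rows, with the number of genes) in the 10 embryos (columns), red above and blue below the mean. The group of APOA1 is lowest in B4 and G3, at -2.34 and -2.10, and the group of HMGCS1 is highest in G4 and B4, at 1.58 and 1.35.

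The largest group held 35 genes, among them APOA1, APOC3, APOE, FN1, SLC7A9 and HBE1. The median rho between its genes was 0.79, and 0.81 in the 8 deeper embryos. The 6 most central genes were SLC20A1, VCAN, SLC7A9, GPR1, LXN and APOA1. SLC20A1, a phosphate carrier, had 659 CPM in E3, 381 in F4, 366 in C3, 249 in E4 and 212 in D3, against 13.3 CPM in B4 and 40.6 in G3. VCAN, the matrix proteoglycan versican, had 36.9 CPM in E3 and 32.3 in C3, against 1.83 in B4 and 0.870 in G3. The group also held PDGFRA, the receptor that marks the hypoblast lineage in mouse embryos, with 56.4 CPM in C3 and 44.0 in E3, against 0.229 in B4 and 0.870 in G3. OTX2, a homeobox factor, was at 82.1 CPM in C3 and 86.9 in E3, against 1.15 CPM in B4. Other members were the chemokine receptor CXCR4, the interleukin receptor IL6R, the second chain of the SLC7A9 carrier, SLC3A1, the fatty acid enzymes ACADM and ELOVL6, and OAT, which makes glutamate semialdehyde from ornithine.

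In this group E3 had the highest value for 22 of the 35 genes, and B4 or G3 had the lowest for 20 and 14. Over all 7093 genes, E3 had the highest value for 6.89%, and B4 and G3 the lowest for 9.78% and 11.0%. The mean deviation of the group from the gene means was 1.91 in E3, 1.31 in C3, 1.267 in F4 and 0.995 in E4, and it fell to -2.34 in B4 and -2.10 in G3. It had a rho of -0.05 with depth. Without B4, 17 of the 35 genes still grouped with APOA1, the fewest when 1 embryo was left out. The whole hypoblast list did not move as a unit: its 6 members with a mean of at least 10 CPM had a median pairwise rho of 0.07, or -0.22 without C3. Of these, LRP2, GATA6, LAMC1 and LAMB1 had SDs between 0.28 and 0.44, and PDGFRA and FN1 had SDs of 1.85 and 2.44. GATA6, present in the whole inner cell mass early on, was at 304 CPM in B4, where APOA1 and PDGFRA were near 0. Of 18 listed apolipoproteins and secreted carriers, 4 had a mean of at least 10 CPM. APOA1, APOC3 and APOE had their highest values in C3, and APOA2 did not, with its highest value, 478 CPM, in G3.

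No gene passed the test for a correlation with APOA1 at an adjusted p under 0.05 (0 of 7092, 0.0%, exact permutation test of Spearman's rho with Benjamini-Hochberg adjustment), with 379 at an unadjusted p under 0.05. By a permutation test of Pearson's r, 2 passed. The positive correlations at an unadjusted p under 0.05 were 247, or 3.48%. The closest partner was VCAN, with a rho of 0.98 (exact permutation p = 2.1e-05, adjusted p = 0.116). Its Pearson's r was 0.97 (permutation p = 1e-05, the smallest that 100000 permutations can give, adjusted p = 0.0355) and 0.96 without B4 and G3, the embryos farthest from the APOA1 median. PDGFRA and APOE each had a rho of 0.92 with APOA1 (exact permutation p = 0.000533, adjusted p = 0.189).

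The enzymes that build cholesterol formed a group of 15 genes with a median rho of 0.82, and 0.81 in the 8 deeper embryos. Without G3, G4, B4 or E3, 6, 7, 8 and 9 of the 15 still grouped with HMGCS1. Cholesterol is made from acetyl-CoA in a chain of enzymes whose genes share the regulator SREBF2, which is active when sterols in the endoplasmic reticulum are low. Its most central members included EBP, IL6, MSMO1, LOC100625049 and DPPA3. EBP, MSMO1, CYP51 and FDFT1 act in the later part of the chain, and HMGCS1 makes the precursor near its start. CYP51, lanosterol demethylase, had 136 CPM in B4 and 115 in G4, then 71.1 in E3, 38.2 in F4, 27.1 in E4, 19.1 in D3 and 18.7 in C3, and 6.09, 3.60 and 0.824 CPM in G3, C4 and A4. MSMO1, which removes methyl groups from sterols, had 940 CPM in G4 and 543 in B4, against 51.1 in A4 and 52.8 in G3. HMGCS1 had 171 CPM in G4 and 169 in B4, against 21.2 in G3, 25.6 in C3 and 30.0 in C4.

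Of the sterol list, 15 of 23 matched genes had a mean of at least 10 CPM, with a median SD of 0.92 and a median pairwise rho of 0.76, against 0.37 and 0.01 over all genes. G4 or B4 had the highest value for 7 and 6 of the 15, and G3 or A4 the lowest for 7 and 4. Over all 7093 genes, G4 and B4 had the highest value for 9.14% and 7.35%, and G3 and A4 the lowest for 11.0% and 5.88%. ACAT2 ran from 248 CPM in C3 to 904 CPM in G4, and SQLE, squalene epoxidase, from 40.6 CPM in A4 to 310 CPM in B4. SREBF2 itself had a mean of 8.78 CPM, with 23.6 CPM in G4 and 0 in D3. STARD4, a sterol carrier, departed from the list with its highest value, 44.8 CPM, in E3.

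HMGCS1 was tested against every other gene. Of 7092 genes, 7 passed an adjusted p of 0.05 (0.0987%, exact permutation test of Spearman's rho, Benjamini-Hochberg), 5 with a positive and 2 with a negative rho, all at adjusted p-values of 0.0495 to 0.0497. HSD17B7, a reductase of sterol synthesis, had a rho of 0.98 (exact permutation p = 2.1e-05, adjusted p = 0.0495). Its Pearson's r was 0.93 (permutation p = 3e-05, adjusted p = 0.0709) and 0.90 without B4 and G4, the embryos farthest from the HMGCS1 median. DPPA3, a maternal and germline factor that guards DNA methylation, had a rho of 0.96 with HMGCS1 (exact permutation p = 4.9e-05, adjusted p = 0.0497). DPPA3 had 1996 CPM in G4, 1416 in B4, 1354 in D3, 1345 in E4, 871 in E3 and 537 in F4, and 229 to 315 CPM in G3, C3, C4 and A4. The other positive partners were CLDN12, a claudin, ETNPPL, which breaks down phosphoethanolamine, and UBA1, the ubiquitin activating enzyme. The negative ones were RFK, riboflavin kinase, with a rho of -0.98, and UBAP1, an ESCRT subunit, with a rho of -0.96.

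Of the 14 other sterol genes tested, HSD17B7 passed the adjusted test and 10 in all had a positive rho at an unadjusted p under 0.05, where 4.0% of all genes did. Among those that did not, ACAT2, FDPS and STARD4 had rho of 0.59, 0.47 and 0.39. The count of 7 was at the threshold. Leaving out any 1 of the 10 embryos left 0 genes or 1, and leaving out D3 and E4 left 0. Fewer embryos also limit the test itself: with 8, 1 gene alone cannot reach an adjusted p under 0.05 at any rho. With 1 embryo left out, 1 gene alone passes only at a rho of 1 or -1. In the 8 embryos without D3 and E4, CLDN12 and DPPA3 had a rho of 1 with HMGCS1, and RFK had one of -1.

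**Figure D4:**
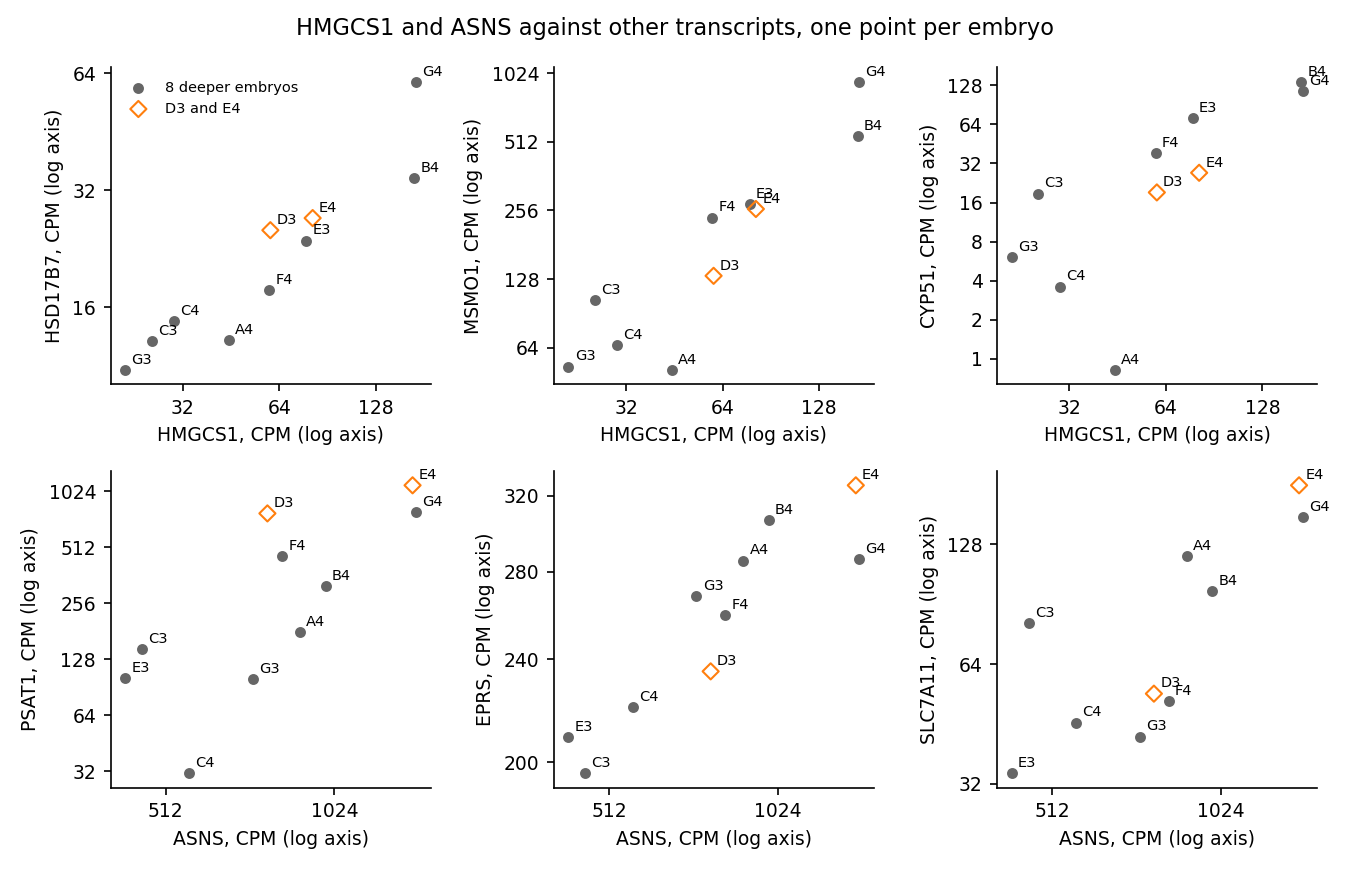
CPM (log axes) of HMGCS1 against 3 sterol genes (top) and of ASNS against 3 genes of the amino acid response (bottom), 1 point per embryo with its code, open diamonds for D3 and E4. G4 and B4 are highest for HMGCS1, and G4 and E4 are highest for ASNS.

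Metallothioneins led a group of 9 genes with a median rho of 0.78. MT1A, MT1D, MT-2B and LOC102166944, which the reference does not name, lie on chromosome 6, between 18645125 and 18673673, and metallothionein genes are close copies of each other, so reads could be split between them. The group rested on few embryos: without D3 and E4, 2 of the 9 still grouped with MT1A, without A4 or D3 3, without G4 4 and without G3 0. MT1A had 108 CPM in D3, 17.7 in F4, 14.8 in E3 and 10.6 in C3, at most 7.505 CPM in 4 others and 0 in G3 and G4. D3 had the highest value for 8 of the 9, where it had the highest for 13.1% of all genes. The group also held HK1, a hexokinase, with 49.6 CPM in D3 and at most 10.0 CPM in the other 9, and SLC2A5, a fructose carrier, with 109 CPM in D3, 30.3 in E3 and at most 15.9 CPM elsewhere.

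D3 also had the highest value for 11 of 19 genes of glycolysis and its response to low oxygen, where it had the highest value for 13.1% of all 7093 genes. LDHA, lactate dehydrogenase, had 5320 CPM in D3 and 1329 CPM in E4, then 830 in F4, and between 200.3 and 421 CPM in the other 7. PGK1, phosphoglycerate kinase, had 2715 CPM in D3, and the other 9 embryos lay between 313 and 650 CPM. ENO1, GAPDH and PKM were highest in D3 as well, at 472, 1145 and 107 CPM. The median SD of this list was 0.69, and 0.41 without D3 and E4. D3 was the shallowest library, and the part of depth in these values was not tested. No gene passed the adjusted test for a correlation with LDHA (0 of 7092, 0.0%, with 373 at an unadjusted p under 0.05 and 0 by Pearson's r).

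The group of Y-linked genes had 14 members, of which 8 lie on chromosome Y. The others were ZFAND2A, MSRB3, ADM and ZNF397 with LOC100526118 and LOC110260647, which are autosomal. LOC110257929, also on chromosome Y, fell in another group, with its highest value, 54.8 CPM, in E3. ADM, the peptide adrenomedullin, was at 102 CPM in C4 and 96.6 in G3, against 15.6 to 28.4 CPM in the 3 embryos without EIF1AY reads and 24.7 to 44.9 CPM in the others.

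A group of 21 genes included several targets of p53, the factor that halts the cell cycle after DNA damage. Its 6 most central genes were ZC3HAV1, PHLDA3, AIF1, CDKN1A, FAS and KITLG. CDKN1A, a cell cycle inhibitor, had 111 CPM in C4 and 88.7 in B4, against 10.4 in E4, 12.2 in D3, 24.7 in A4 and 31.3 in G4. PHLDA3, an inhibitor of AKT, had 102 CPM in C3 and 85.9 in C4, against 8.77 in E4 and 13.0 in D3. FAS, a death receptor, ran from 3.02 CPM in A4 to 27.1 CPM in C3. The group was lowest in E4, D3 and A4, and its median rho of 0.71 fell to 0.57 in the 8 deeper embryos. The mean profile of this group had a rho of 0.56 with depth, and its part was not tested. Of 14 listed p53 targets with a mean of at least 10 CPM, 3 had an SD over 1, and the median pairwise rho was 0.47, or 0.29 without D3 and E4.

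A further group of 20 genes with a median rho of 0.77 was led by DUSP5 and ICAM1. DUSP5, a phosphatase that restrains ERK, had 148 CPM in E3 and 92.4 in C3, against 7.69 in G4. ICAM1, an adhesion receptor, had between 19.2 and 23.2 CPM in C3, C4, E3 and F4, against 1.28 in G4 and 1.65 in A4. KLF4 was at 133 CPM in E3 and 132 in C3 and at most 53.4 CPM elsewhere. BTG2, an antiproliferative gene, reached 69.0 CPM in E3, at most 14.3 CPM in the other 9. The other central members were TLE3, CXCL16 and SDCBP2. E3 was highest for 12 of the 20 and G4 lowest for 12, against 6.89% and 10.8% of all genes. The group had a rho of 0.05 with depth.

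Smaller groups followed other embryos. KRT19, a keratin, grouped with the protease CTSL, the clotting receptor F3, the carrier SLC36A2, GRN and ABHD6, 11 genes in all. KRT19 had 133 CPM in C4, 105 in E3 and 85.8 in C3, against 8.77 CPM in E4. A group of 9 with LIMA1, DIRAS3, ID4, AK3, MGAT5 and LOC110260659 was highest in E3, for 8 of 9 genes, against 6.89% of all genes. ID4, an inhibitor of helix-loop-helix factors, had 36.4 CPM in E3 and 2.61 CPM in G3.

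The other 3 groups were lowest in D3 and E4. The first had 22 genes, with SLC25A39, LOC102158857, HSD17B14, PPDPF, GDPD5 and NUDT8 at its centre. CTSD, a lysosomal protease, had 213 CPM in D3 and 161 in E4, against 896 to 1329 CPM in the other 8, and CALR, a calcium-binding chaperone, had 152 and 95.7 CPM, against 298.95 to 698 CPM. Its median rho fell to 0.43 in the 8 deeper embryos, and its profile had a rho of 0.70 with depth. The second had 17 genes, led by LOC110255936, GRIN3B, UBE2O, ABHD4, BCL2L1 and CRAT. Its median rho of 0.75 fell to 0.55 in the 8 deeper embryos, and its profile had a rho of 0.28 with depth. BCL2L1, which protects from apoptosis, had 3.48 CPM in D3 and 3.99 in E4, against 15.7 to 28.4 CPM. The third had 9, with NUP210, ATP13A2, ZBTB6, ELAC2, INTS11 and LOC100157935. Its median rho was 0.78, and 0.70 in the 8 deeper embryos, and its profile had a rho of 0.54 with depth. NUP210, of the nuclear pore, had 3.48 CPM in D3, against 15.1 to 36.0 CPM in the other 9. Depth was lowest in the same embryos, so the part of depth in these groups was not tested. Depth itself correlated with 0 of 7093 genes at an adjusted p under 0.05 (0.0%, exact permutation test of Spearman's rho, 0 by Pearson's r). At an unadjusted p under 0.05 it correlated with 390, or 5.5%, by Spearman's rho and with 1098 by Pearson's r. Without G3 or G4, 1 gene passed the adjusted test of Spearman's rho.

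The amino acid response was read from 4 lists: ATF4 and its regulators, enzymes of amino acid and one-carbon synthesis, amino acid carriers, and aminoacyl tRNA synthetases. Of their matched genes, 68 had a mean of at least 10 CPM, with a median SD of 0.46, against 0.37 over all genes, and 4 had an SD over 1. The program did not vary as a unit: the median rho over all pairs of the 68 was 0.10, with -0.53 and 0.68 at the 5th and 95th percentiles. Within the lists the median rho was 0.13 for ATF4 and its regulators, -0.04 for the enzymes, 0.13 for the carriers and 0.30 for the tRNA synthetases. These medians moved when 1 embryo was left out. For ATF4 and its regulators the median was near 0 without C3, 0.20 without D3 or E4 and 0.22 without G3. For the enzymes it lay between -0.07 without G3 and 0.02 without G4. It fell to 0.07 without G4 or 0.08 without A4 for the carriers, and to 0.17 without C3 for the synthetases.

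ASNS, on chromosome 9 at 77318341 to 77336290, had 1434 CPM in G4, 1413 in E4, 988 in B4, 889.5 in A4, 826 in F4, 778 in D3, 733 in G3, 564 in C4, 464 in C3 and 433 in E3. ATF4 was between 331 CPM in G3 and 764.5 CPM in E4. NUPR1, a stress-induced chromatin protein, lay between 206 CPM in C3 and 624 in F4, and EIF4EBP1, a translation inhibitor, between 207 CPM in C3 and 533 in G4. CHAC1, which degrades glutathione, had the widest spread of this list, with 162 CPM in G4 and 15.8 in C3. JDP2 and ATF3, both related basic leucine zipper factors, had SDs of 0.69 and 0.65. DDIT3, a factor of prolonged stress, had 193 CPM in G3, 176 in E4 and 170.5 in D3, and 52.5 to 112 CPM in the other 7.

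Among the enzymes, OAT, PSAT1 and PYCR1 varied most. PSAT1 and PSPH, which complete the serine pathway after PHGDH, varied in parallel with a rho of 0.90. PSAT1 had 1099 CPM in E4, 791 in G4, 777 in D3, 460 in F4, 316 in B4, 180 in A4, 145 in C3, 101 in E3, 100.1 in G3 and 31.2 in C4, and PSPH had 501 CPM in E4, 381 in G4 and 283 in D3, against 99.6 in E3. PHGDH, the entry enzyme, was lower, at 7.90 to 43.5 CPM, with its highest value in C4, where PSAT1 was lowest. PYCR1, of proline synthesis, had 78.1 CPM in B4 and 6.96 in D3, and OAT followed the APOA1 group, with 324 CPM in E4 and 5.22 in G3. The most abundant of the list were ARG1 at 899 ± 227, MTHFD2 at 860.4 ± 144 and ASNS at 852 ± 349.99 CPM (mean ± SD, n = 10).

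Of the carriers, SLC7A8, SLC7A7 and SLC3A2 were the most abundant, at 351 ± 76.4, 285 ± 65.4 and 197 ± 75.8 CPM. SLC1A5, the main glutamine carrier of many cells, showed 2 levels: 163 CPM in F4, 121 in B4, 116 in E4, 105 in A4, 81.8 in G4, 60.9 in G3 and 60.1 in E3, against 6.96 in D3, 6.65 in C3 and 5.70 in C4. SLC7A5, a carrier of large neutral amino acids whose identifier the reference annotation lists as a long noncoding RNA, had 82.0 CPM in B4 and 9.57 in D3. SLC3A1 ran from 15.6 CPM in B4 to 149 CPM in E3. The tRNA synthetases were the steadiest list, with SDs between 0.17 for IARS and 0.52 for HARS. NARS, TARS and KARS were the most abundant of these, at 801 ± 143, 765 ± 193 and 592 ± 111.5 CPM, and HARS, FARSA and WARS varied most. C3 had the lowest value for 12 of the 20 synthetases, where it had the lowest for 14.5% of all genes.

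**Figure D5:**
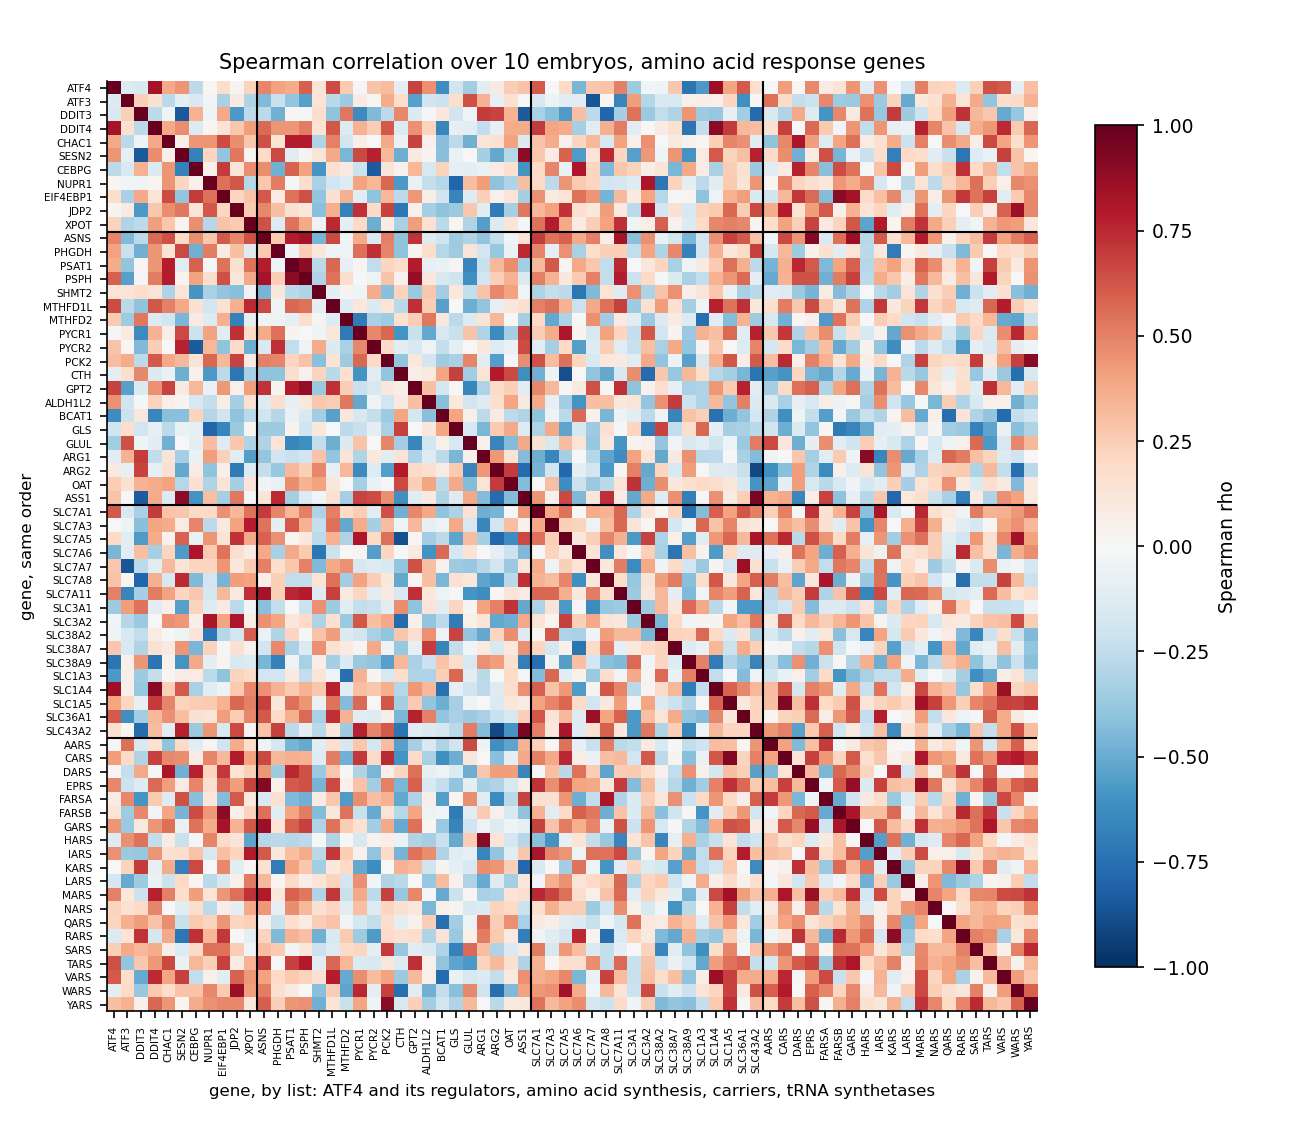
Spearman's rho over the 10 embryos between each pair of the 68 amino acid response genes, ordered by list with black lines between lists, red for positive and blue for negative values. Red and blue are mixed in most blocks, and the tRNA synthetases at the lower right have the reddest block, with a median rho of 0.30.

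Against ASNS as the reporter, 0 of 7092 genes passed the adjusted test (0.0%, exact permutation test of Spearman's rho, and 0 by Pearson's r), with 445 at an unadjusted p under 0.05. Leaving out B4 left 1 gene. A positive rho at an unadjusted p under 0.05 was found for 12 of the 67 other genes of the 4 lists, 17.9%, where 3.16% of all genes had one. None of the 67 had a negative rho at that level, and their median rho was 0.38, against 0.01 over all genes. The 12 were the tRNA synthetases EPRS, GARS, MARS, TARS and CARS, the enzymes PSPH, PSAT1, GPT2 and MTHFD1L, and the carriers SLC7A11, SLC7A1 and SLC1A5. EPRS came first, with a rho of 0.92 (exact permutation p = 0.000533, adjusted p = 0.63). Its Pearson's r was 0.91 (permutation p = 0.00028, adjusted p = 0.511) and 0.95 without E3 and G4, the embryos farthest from the ASNS median. ATF4 itself had a rho of 0.49 with ASNS, and DDIT3 one of -0.27. The gene with the strongest correlation of all was negative, ARID5B, a chromatin factor, at -0.96 (exact permutation p = 4.9e-05, adjusted p = 0.348), and KRT19 had a rho of -0.92.

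HSPA5, the main chaperone of the endoplasmic reticulum, had 649 CPM in E4, 635 in F4, 486 in D3, 483 in G3, 476 in E3 and 341 in C3, and 254 to 284 CPM in A4, B4, C4 and G4. One gene passed the adjusted test with it (1 of 7092, 0.0141%), UFM1, a ubiquitin-like modifier of the endoplasmic reticulum, with a rho of 0.99 (exact permutation p = 5.5e-06, adjusted p = 0.0391), and 0 passed by Pearson's r. UFM1's Pearson's r was 0.88 (permutation p = 0.0001, adjusted p = 0.23) and 0.87 without B4 and E4. Leaving out 1 embryo left 0 genes or 1. Of 21 other genes of protein folding stress, 5 had a positive rho with HSPA5 at an unadjusted p under 0.05, where 5.84% of all genes did. The highest were MANF at 0.87 and HSP90B1 at 0.81, and DDIT3 had a rho of 0.92.

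For the trophectoderm, 14 of 20 listed genes had a mean of at least 10 CPM, with a median SD of 0.46, or 0.35 without D3 and E4. E4 had the lowest value for 8 of the 14, where it had the lowest for 12.3% of all genes. KRT8 and KRT18 were among them at 1638 and 1028 CPM, with D3 next at 2154 and 1576 CPM. E4 and D3 were the shallow libraries, and the part of depth in these values was not tested. KRT19, CLDN4 and GATA2 varied most, and KRT8, PTGS2 and KRT18 were the most abundant. GATA2, a trophectoderm factor, had 207 CPM in A4 and 183 in C4, against 39.1 in D3 and 41.5 in E4. CLDN4, a tight junction protein, had 232 CPM in F4 and 43.1 in E4. PTGS2, the enzyme that starts prostaglandin synthesis, was at 4663 CPM in E3 and 2063 to 3194 CPM in the other 9. No gene passed the adjusted test with KRT18 (0 of 7092, 0.0%, with 642 at an unadjusted p under 0.05 and 0 by Pearson's r). Without C4 or G3, 1 gene passed.

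Of 20 genes of the inner cell mass and epiblast, 7 had a mean of at least 10 CPM, with a median pairwise rho of -0.07. SALL4 and ZFP42 were the most abundant, at 431 ± 64.4 and 270.0 ± 70.3 CPM, with ESRRB at 98.7 ± 23.98 CPM. KLF17, TDGF1 and GDF3 varied most, with SDs of 0.75, 0.72 and 0.66. TDGF1, a co-receptor of NODAL, had 69.5 CPM in C3 and 11.5 in G4. With POU5F1, 3 of 7092 genes passed the adjusted test (0.0423%, 0 by Pearson's r): SEMA4B and RHOV with a rho of 0.99 each and TAGLN2 with 0.98, none of them a pluripotency gene. The median rho with POU5F1 was -0.25 for the 6 other inner cell mass genes and 0.62 for the 14 trophectoderm genes. Of these 14, 6 had a positive rho at an unadjusted p under 0.05, where 6.71% of all genes did. POU5F1 levels were lowest in E4 and D3, the shallow embryos, and the rho of RHOV was 0.98 without these. For the 6 trophectoderm genes the rho without D3 and E4 was 0.86 for KRT8, 0.81 for TEAD4 and 0.67 for GATA2. It was 0.48 for GATA3 and 0.38 for both KRT18 and CLDN4, which had 0.68 each with all embryos. The part of depth in these correlations was not tested. With CCNB1, the mitotic cyclin B1, 3 of 7092 genes passed (0.0423%, 0 by Pearson's r), CDIP1, EHD1 and UBR4, with rho of -0.99, -0.98 and -0.98. CCNB1 had 1035 CPM in D3, 996 in G4 and 968 in E4, and 427 to 523 CPM in A4, B4, C3 and C4. Leaving out 1 embryo left 0 genes or 1 for POU5F1 and between 0 and 2 for CCNB1. The 9 families of correlations, 8 genes and depth, were each adjusted over their own 7092 or 7093 genes.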

How the data were processed

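Single embryos were lysed and amplified with Smart-seq2 without molecular identifiers. For the authors' processing the sources name FastQC and MultiQC for quality, Trim Galore for trimming, HISAT2 for alignment (Sus scrofa 11.1) and edgeR for normalization. How reads were counted, with which annotation, and tool versions are not given in the sources used here. The signal values the authors deposited per embryo are CPM over a scaled library size, and each embryo's values summed to 1055160 to 1267420. Dividing by the smallest step gave whole reads, to within 0.1 reads, in 100% of values, and depth is the sum of these. The 10 in vivo columns of the table were not used, nor were the columns of the authors' own comparison (log2 fold change, mean log2 CPM, likelihood ratio, p-value and FDR). Symbols and positions come from the RefSeq annotation of Sscrofa11.1, whose identifiers matched all 30321 rows, 17413 with a name other than a LOC number.

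Spread was the SD of log2(CPM + 1) for genes with a mean of at least 10 CPM. The counting share of a variance assumes Poisson reads and covers counting error only, as PCR copies are not independent molecules. Spearman's rho was tested with an exact two-sided permutation test over all orders of the embryos, Pearson's r with 100000 permutations, each with Benjamini-Hochberg adjustment over all genes at 0.05 (Python 3.11.15, numpy 2.4.6, scipy 1.17.1). With 100000 permutations 1 gene alone cannot reach an adjusted p of 0.05. The same holds for the exact test on the 8 embryos without D3 and E4. With 1 embryo left out, 1 gene alone passes the exact test only at a rho of 1 or -1. The code was tested on simulated data. The embryos came from several experiments, but which embryo came from which is not given, so the p-values treat the embryos as independent. Named genes were the 15 highest by mean, the 20 highest by SD, the 6 most central of each group, the anchors (ASNS, HSPA5, LDHA, HMGCS1, APOA1, KRT18, POU5F1, CCNB1), the Y-linked genes, and the 3 highest and 3 most variable genes of the amino acid and cell type lists. Other named genes were chosen after their values were seen, and some genes that the rule takes are not reported here. The embryos, the 20 lists and the tests were chosen with earlier results of these data known. Of 424 list entries, 5 had no matching symbol. Alternatives were the pseudocounts 0.1 and 10, a minimum of 50 CPM or none, Pearson's r, other measures of spread, other size factors, reads thinned to the shallowest embryo, and leaving out D3 and E4 or each embryo in turn.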

Additional observations from a re-analysis of the deposited data

Results flagged for a closer look

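The extreme embryo of 85 quantities, namely depth, genes detected, distance, summed Y-linked CPM, the share of the 15 most abundant genes, and log2(CPM + 1) of named genes, was compared with its nearest neighbour by Dixon's ratio, the gap over the range. This was exceeded for 2 of them, and chance alone exceeds it for about 1 in 20 groups, or 4.25 of 85. ATF3 stood out in E3, at 54.8 CPM against at most 23.4 CPM in the other 9 embryos, with a ratio of 0.48. SALL4 was low in C3, at 275.5 CPM against at least 394 CPM in the other 9, with a ratio of 0.617.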

How the results depend on the processing

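Of the 15 most abundant genes, 14 remained by median CPM, 15 without D3 and E4, and 14 to 15 with 1 embryo left out. Of the 50 most variable genes, 40 remained without D3 and E4 and 43 to 48 with 1 embryo left out, but 30 with a pseudocount of 10, 12 with a mean of at least 50 CPM, 28 by squared CV after counting and 27 by median absolute deviation. The number of groups of genes was between 8 and 13 under every alternative run, 9 to 13 with 1 embryo left out. The APOA1 group kept 17 to 34 of its 35 genes, the HMGCS1 group 6 to 15 of 15 and the MT1A group 0 to 9 of 9 with 1 embryo left out, and the MT1A group kept 2 of 9 without D3 and E4 and 1 when reads were thinned. For embryo distances and principal components, the mean distance was 0.0694 to 0.0741 with 1 embryo left out, and 0.079 by Spearman, 0.0867 with a mean of at least 50 CPM and 0.0802 with thinned reads. The causes were not tested.

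Of the correlation counts, 18 moved and 27 did not under settings that kept all embryos or left out D3 and E4 together, and 42 moved and 48 did not with 1 embryo left out. LDHA stayed at 0 in all of these, and with median-of-ratios factors HSPA5 kept its 1 gene and POU5F1 its 3. For HMGCS1 they were 2 by Pearson's r, 4 with a mean of at least 50 CPM, and 0 with median-of-ratios factors, with no filter and without D3 and E4. For HSPA5 they were 0 by Pearson's r, with no filter and without D3 and E4. For POU5F1 they were 0 by Pearson's r, with a mean of at least 50 CPM, with no filter and without D3 and E4, and for CCNB1 the same 4 gave 0 and median-of-ratios factors gave 1. For APOA1, Pearson's r gave 2. In the 8 embryos without D3 and E4, 1 gene alone cannot reach an adjusted p under 0.05 at any rho. The counts of 0 in that setting therefore say little about the correlations. UFM1 had a rho of 1 with HSPA5 in those 8 embryos. With 1 embryo left out the ranges were 0 to 1 for ASNS, HSPA5, HMGCS1, KRT18, POU5F1 and depth, and 0 to 2 for CCNB1. Levels per kb were not run, since no transcript length was given. No paired analysis was possible because no groups were compared. Depth limits values of a few CPM in D3 and E4.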

Other observations

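The long noncoding RNA LOC106509620 starts 113 bases after the annotated end of ACTB on chromosome 3. It had 40.8 CPM in E3 and 65.0 CPM in G3, the embryos with the highest ACTB, 8716 and 9736 CPM, and at most 2.70 CPM in the other 8, with a rho of 0.64 over the 10 embryos.

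SULT1E1, the sulfotransferase that inactivates estrogens, ranged from 3.44 CPM in B4 and 6.31 in A4 to 115 CPM in E3 and 71.3 in D3. STAR, which carries cholesterol into mitochondria, was at 21.4 CPM in A4 and 20.1 in C4, against 2.90 in G3 and 2.98 in B4. PTTG1, securin, ran from 43.4 CPM in A4 to 197 CPM in G4.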
